A study of Mus musculus with 2 samples.

Results

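The cells described here are the Cd34-positive stem and early progenitor cells among sorted cells of mouse hindlimb muscle. Members were chosen on their own RNA: at least 1 Cd34 unique molecular identifier (UMI, a tag that counts 1 captured RNA molecule), at least 2 UMIs of Myct1, Adgrl4, Angpt1 and Egfl7 together, at most 2 of Fabp4, 1 of Car1, 1 of F13a1 and 2 of 4 collagen-matrix genes (Col1a1, Col1a2, Col3a1 and Dcn), and fewer than 2000 Elane UMIs in every 1000000 UMIs of the cell. This rule found 310 of 5302 cells. The mice carried Fsp1-Cre and R26R-EYFP, so Cre made under control of the Fsp1 promoter (Fsp1 is the gene S100a4) had switched on a permanent YFP label in a cell or its ancestor, and the sort took YFP-positive cells without surface CD11b. The day 0 library came from mice without surgery and the day 28 library from mice taken 28 days after surgery that made the limb ischemic. Both groups share the genotype and the sort, and the labels name no strain, age or number of animals. The Fsp1 promoter is also active in blood cells, so the label does not define 1 lineage. With 1 library per group there is no replicate and no test between the conditions. Every interval below is an exact 95% interval that covers counting error only.

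Haematopoietic stem cells and the multipotent progenitors below them renew the blood and are found mainly in bone marrow. CD34 is a surface sialomucin of these early cells, and it is also carried by endothelial cells, fibro-adipogenic progenitors and muscle satellite cells, so other genes have to show which of these a Cd34-positive cell is. Stem cells are kept by transcription factors such as Meis1, Hlf, Mecom, Gata2 and the Hoxa cluster, and progenitors turn on low levels of genes of several blood lineages before they commit to 1 of them.

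The members numbered 92 of 2666 kept cells at day 0, 3.45% (2.79% to 4.22%), and 218 of 2636 at day 28, 8.27% (7.25% to 9.39%). The share at day 28 was 2.40 times that at day 0 (1.87 to 3.09). Depth differed between the libraries: the non-members had medians of 4731.5 and 12415.5 UMIs and the lowest kept totals were 3001 and 4175 UMIs. Among cells with at least 4175 UMIs the share ratio was 1.49 (1.16 to 1.93), and with every cell thinned to 3000 UMIs before the rule was applied it was 2.06, with 26 and 53 members. Members themselves held a median of 8616 UMIs at day 0 (3187 to 33932) and 12259 at day 28 (4301 to 41790), and 2544.5 and 2834 detected genes. Their mitochondrial share had medians of 2.38% and 2.58%. The libraries shared 13 barcodes, of which 0 were members.

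The genes of the rule are given as a description. Cd34 (chromosome 1, 194938819 to 194961279, GRCm38) ran from 1 to 17 UMIs per member in each library, with medians of 4 and 3. Its summed level, in counts per 1000000 UMIs (CPM), was 447 without surgery and 294 after ischemia. Egfl7, which encodes a secreted protein of endothelial and early blood cells, was the most widely found of the 4 summed genes, in 81.5% and 83.9% of members. Adgrl4, an adhesion receptor, was found in 57.6% and 59.2%, Angpt1, a ligand of the TEK receptor, in 52.2% and 58.7%, and Myct1, a gene of endothelial and early blood cells, in 51.1% and 45.0%. Members at the edge of the rule were common, with 19 and 60 at 1 Cd34 UMI and 26 and 35 at 2 UMIs of the 4 genes. Just inside, members with 2 of those UMIs had Meis1 at 93.9 and 32.2 CPM, and just outside, the 20 and 41 cells with 1 UMI that met every other condition had 37.1 and 11.2 CPM. Adgrg1 stood at 210 and 145 CPM inside that edge and at 132 and 120 CPM outside it. The cells that lacked only Cd34 (57 and 105) had Meis1 at 73.5 and 34.3 CPM and the B cell gene Cd79a at 605 and 333 CPM, beside 77.2 and 76.5 CPM of Cd79a in members with 1 Cd34 UMI.

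The promoters of Cd34, Meis1 and Spns2 are shown because Cd34 defines the members and the other two have the highest enrichment in them over the other cells, by the lower of both libraries' ratios, among genes outside the rule that averaged 50 CPM or more in members. Each runs from 250 bases before to 50 bases after a RefSeq transcription start on GRCm38.p6, on the strand of the gene. Cd34 is on the plus strand at chr1:194938571-194938870, Meis1 on the minus strand at chr11:19018920-19019219 and Spns2 on the minus strand at chr11:72474978-72475277. Capitals mark matches, on either strand, to the ETS motif CGGAAG and its variant AGGAAG, the GATA motif AGATAA and its variant TGATAA, and the RUNX motif TGTGGT, which are core letters bound by families of blood transcription factors. No 2 of the marked matches overlap.
Cd34: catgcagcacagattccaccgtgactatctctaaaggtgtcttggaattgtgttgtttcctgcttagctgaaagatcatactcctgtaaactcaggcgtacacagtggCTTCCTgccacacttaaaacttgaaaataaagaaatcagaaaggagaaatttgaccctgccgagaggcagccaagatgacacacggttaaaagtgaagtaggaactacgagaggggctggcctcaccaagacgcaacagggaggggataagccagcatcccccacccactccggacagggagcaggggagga
Meis1: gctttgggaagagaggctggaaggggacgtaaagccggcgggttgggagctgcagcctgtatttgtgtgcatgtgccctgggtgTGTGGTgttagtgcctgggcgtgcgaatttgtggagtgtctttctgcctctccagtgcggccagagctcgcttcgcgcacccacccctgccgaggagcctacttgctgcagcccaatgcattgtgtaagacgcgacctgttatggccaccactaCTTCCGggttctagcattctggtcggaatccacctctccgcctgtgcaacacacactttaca
Spns2: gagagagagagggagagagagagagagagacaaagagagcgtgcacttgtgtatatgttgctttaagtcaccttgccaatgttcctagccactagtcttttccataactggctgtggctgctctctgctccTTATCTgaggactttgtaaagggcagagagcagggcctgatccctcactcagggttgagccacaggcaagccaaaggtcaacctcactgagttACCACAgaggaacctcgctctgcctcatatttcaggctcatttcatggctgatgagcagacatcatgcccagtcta
Cd34 held 1 ETS match, Meis1 held 1 ETS and 1 RUNX match, and Spns2 held 1 GATA and 1 RUNX match. Of 32851 RefSeq mouse promoters of this length, 46.5% held an ETS, 18.6% a GATA and 16.8% a RUNX match. Of the 20 genes most enriched in members, 15 had a promoter in the table, with 18 promoters in all. Of these 18 promoters, 6 held an ETS, 6 a GATA and 4 a RUNX match. A match is a description of letters and shows no binding.

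Most measured regulators of blood stem cells were far higher in members than in the other cells, while surface genes of these cells were divided. Of 4807 measured genes (those whose levels in members, over both libraries, averaged 20 CPM or more, without the genes of the rule), 140 (2.91%) were at least 2-fold higher in members than in the other cells of the same library in both libraries, and 84 (1.75%) were at least 2-fold lower in both. Of 15 measured regulators of stem and multipotent cells, 10 were at least 2-fold higher in both and 0 lower. The median ratio of that list was 4.28 at day 0 and 3.82 at day 28, beside 1.11 and 0.980 over all measured genes. Of 7 measured stem surface genes, 3 were at least 2-fold higher in both libraries and 2, Ly6a among them, at least 2-fold lower. Their median ratios were 1.36 and 1.30. Since each member was picked for Cd34 and its companions, genes that go with them were bound to be high, and these values describe the cells without testing them.

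Meis1, a homeobox partner of HOX proteins (chromosome 11, 18879817 to 19018985), stood at 82.6 CPM in members and 4.5 CPM in other cells at day 0, and at 52.9 and 6.14 CPM at day 28. Hoxa9, its HOX partner, stood at 66.1 and 39.2 CPM in members and 4.56 and 6.19 CPM in other cells. Hlf, a leucine zipper factor of stem cells, stood at 59.5 and 26.1 CPM in members and 3.64 and 1.74 CPM in other cells. Over all other cells these factors were thus low in both libraries, but as those cells are many, more Meis1 UMIs lay outside the members than in them (84 against 75 at day 0, 219 against 158 at day 28). Spns2, an exporter of sphingosine 1-phosphate, was 15 and 11.5 times its level in other cells. Adgrg1, the adhesion receptor GPR56, was listed as a marker of these cells but is not part of the rule, and it stood at 247 and 220 CPM, 10.1 and 6.98 times its level in other cells. An Adgrg1 UMI was found in 81.5% and 83.5% of members and in 1.38% and 1.85% of T cells (at least 3 UMIs of Cd3d, Cd3e and Cd3g together and 0 of Cd34), which should lack it. These T cells were shallower, with medians of 3936 and 5935.5 UMIs.

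The rest of the 20 most enriched genes spanned surface, signalling and transcription. Ctla2a, a cathepsin inhibitor, was 8.19 and 11.8 times higher, and the mucin Muc13 was 11.3 and 6.67 times higher. Ifitm1, an interferon-induced membrane protein, was 10.3 and 6.0 times higher. Flt3, the receptor of FLT3 ligand on multipotent progenitors, was 5.72 and 4.92 times higher, and Dntt, the lymphoid DNA polymerase TdT, 4.51 and 4.58 times. Sox4, a factor of early progenitors, reached 370 and 349 CPM and was found in 89.1% and 92.7% of members. Against only those other cells that carried a Kit or Cd34 UMI (282 and 896 cells), Meis1 was still 7.94 and 8.17 times, Spns2 6.65 and 8.83 times and Adgrg1 4.69 and 6.27 times higher. Over all other cells Kit, the stem cell factor receptor, was 5.76 and 2.64 times higher. Against those with a Kit or Cd34 UMI, which were picked partly for Kit, it was 1.42 and 1.38 times higher. In that comparison the stem regulator Lyl1 stood at 1.34 and 0.866 times and the surface gene Ly6a at 0.681 and 0.550 times.

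**Figure D1:**
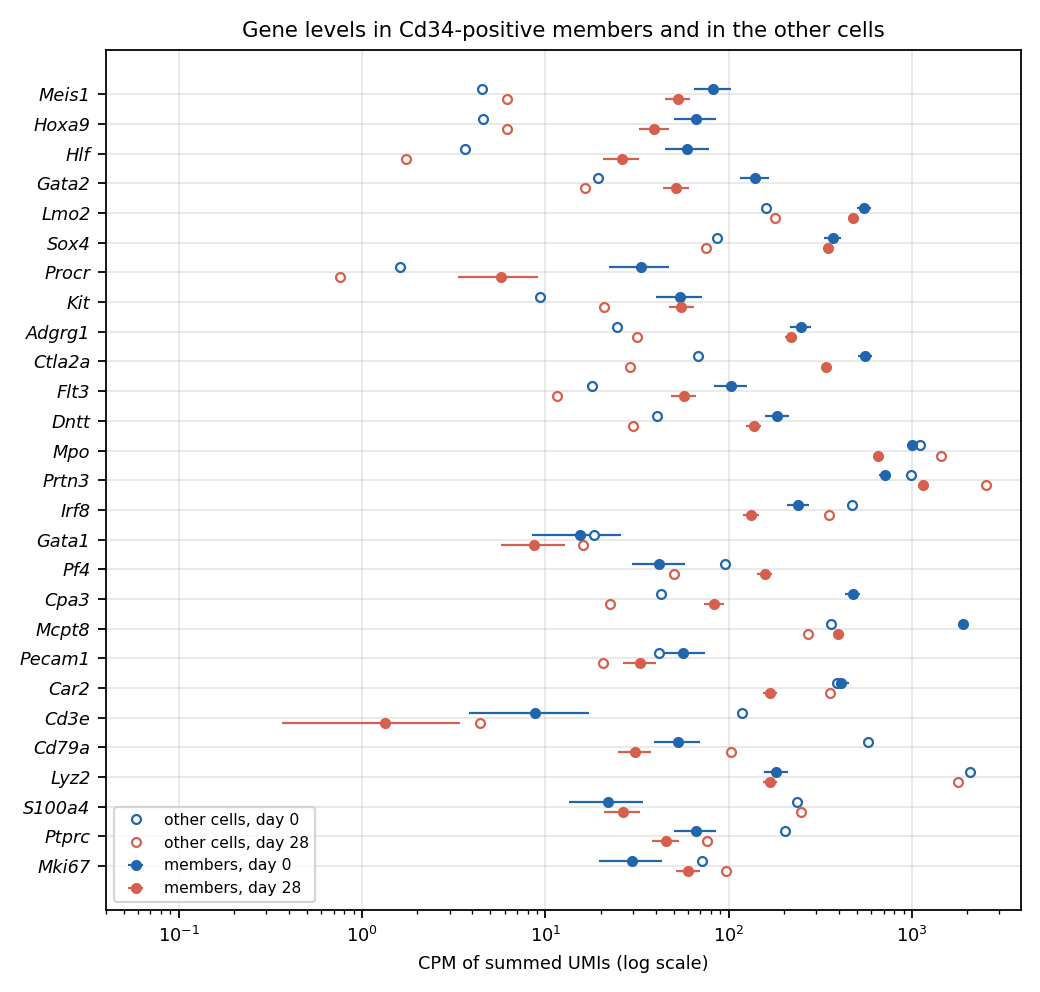
Level of 27 genes in members (filled) and in the other cells of the same library (open) as CPM of summed UMIs on a log axis, at day 0 (blue) and day 28 (red), with bars for the 95% Poisson interval in members. Meis1, Hoxa9, Hlf and Procr sit far to the right of the open points in both libraries, while S100a4, Lyz2, Ptprc, Cd79a and Cd3e sit to the left.

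Several lists of mature cells were low in members. Caps on Car1, F13a1 and Elane are part of the rule, so low levels of erythroid, monocyte and granule genes were partly bound to follow. All 3 measured genes of the erythroblast list and all 3 of the B cell list were at least 2-fold lower than in the other cells in both libraries, as were 4 of 6 MHC class II genes and 3 of 9 myeloid granule genes. Lyz2, the lysozyme of macrophages and neutrophils, stood at 182 and 168 CPM in members and 2079 and 1774 CPM in other cells. Ly6c2, a monocyte surface antigen, stood at 56.2 and 93.8 CPM against 1218 and 970 CPM, and Cd74, the MHC class II chaperone, at 281 and 150 CPM against 4171 and 636 CPM. S100a4, whose promoter drove the Cre, stood at 22 and 26.5 CPM in members and 237 and 247 CPM in other cells, with an S100a4 UMI in 13% and 21.6% of members. Of 10 measured S100 and annexin genes, 5 were at least 2-fold lower than in other cells in both libraries and 0 higher. Ptprc, the leukocyte antigen CD45, was found in 44.6% and 42.2% of members, at 66.1 and 45.5 CPM.

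The label was set beside markers of the other Cd34-positive cells of muscle. Of 20 endothelial genes 1 was measured at 20 CPM, Pecam1 at 56.2 and 32.8 CPM, a gene that stem cells also carry. Cdh5, the endothelial cadherin, had 0 UMIs at day 0 and 1.67 CPM at day 28, and 11 and 6 of the 20 genes were at 0. Pdgfra of fibro-adipogenic progenitors and Pax7 of satellite cells had 0 UMIs in both libraries. Of 14 mesenchymal genes 1 (Gsn) was measured, and of 10 muscle, 7 mural and 8 macrophage genes 0 were. The summed endothelial genes came to 105 and 62.3 CPM in members beside 137 and 102 CPM in other cells, and the summed mesenchymal genes to 79.3 and 51.6 CPM beside 223 and 75.9 CPM. Taken as up to 3 UMIs, a count of 0 allows 3.30 CPM at day 0 and 1.0 CPM at day 28. The members thus held blood progenitor genes, with Cdh5, Pdgfra and Pax7 at or near 0. The endothelial list was not low throughout: Tie1 stood above its level in other cells, with values given in the last paragraph.

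Some members went in part against the label. Genes of basophils and mast cells were concentrated in a few cells: 12 members at day 0 and 18 at day 28 had at least 10 UMIs of the 8-gene basophil and mast cell list and held 97.4% and 89.5% of its UMIs. The highest single member had 1511 of these UMIs at day 0 and 568 at day 28. In these cells Mcpt8, a basophil granule protease, reached 12858 and 3527 CPM and Cpa3, a mast cell and basophil carboxypeptidase, 2832 and 546 CPM. Gata2, which acts in stem cells and in the basophil and mast cell lineage, stood at 362 and 192 CPM in them. The stem cell factor Hlf was at 0 and 13.2 CPM in them and Hoxa9 at 7.53 and 26.5 CPM. Meis1 stood at 45.2 and 36.4 CPM (6 and 11 UMIs), beside 82.6 and 52.9 CPM in all members. Adgrg1 stood at 249 and 172 CPM, beside 247 and 220 CPM in all members, and Kit at 22.6 and 69.5 CPM, beside 54.0 and 55.3 CPM. These cells thus held little of some stem and progenitor genes and kept others. They are called members with basophil genes here, and the values that rest on them are given with and without them. This group was defined after its values had been seen.

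The members differed among themselves in other ways too. At least 1 UMI of Hlf, Mecom or Procr, genes of immature stem cells, was found in 39 members (42.4%) at day 0 and 69 (31.7%) at day 28. Without the members with basophil genes, those were 39 of 80 and 64 of 200, and the values of this comparison and the next one leave such members out. In the 39 and 64 cells Car2, a carbonic anhydrase of stem and erythroid cells, stood at 638 and 284 CPM, against 314 and 128 CPM in the 41 and 136 members without such a UMI. Mpo, the neutrophil peroxidase, stood at 612 and 291 CPM against 766 and 724 CPM, and Dntt at 29.3 and 54.7 CPM against 362 and 191 CPM. Prtn3, another granule protease, did not follow this order at day 0, at 738 against 724 CPM, but stood at 782 against 1305 CPM at day 28, and Flt3 stood at 79.1 against 150 CPM at day 0 and at 62.5 against 63.7 CPM at day 28. Irf8, a factor of monocyte and dendritic precursors, stood at 32.2 CPM against 471 CPM at day 0, and at 139 against 148 CPM at day 28. The members with such a UMI were the shallower ones, with medians of 7516 and 10800.5 UMIs against 8634 and 12615 UMIs.

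Dntt divided the members in a further way. A Dntt UMI was found in 26 members (28.3%) at day 0 and 63 (28.9%) at day 28. Without the members with basophil genes, the 26 and 62 cells with Dntt held Flt3 at 242 and 118 CPM against 54.9 and 41.2 CPM in the 54 and 138 without it, and Ebf1, a B lineage factor, at 90.6 and 160 CPM against 11.8 and 14.6 CPM. They held little Apoe, a lipid carrier, at 18.9 and 41.6 CPM against 310 and 137 CPM. Their median depths were 9642 and 11235.5 UMIs against 7812.5 and 12579.5 UMIs. Pf4, a platelet chemokine, was at 10 or more UMIs in 2 and 4 members, and 1 cell held 57.9% of its UMIs at day 28.

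Lineage genes of several kinds were found within single cells. After each member was thinned to 3000 UMIs, 88.0% of day 0 and 75.2% of day 28 members had at least 3 UMIs of stem regulators, 87.0% and 95% had at least 3 of myeloid granule genes, and 75% and 70.2% had both. The same level of early megakaryocyte and erythroid genes was found in 30.4% (21.3% to 40.9%) of day 0 and 12.4% (8.32% to 17.5%) of day 28 members, beside 0.830% and 0% of T cells (0 of 108, which allows up to 2.78% when a count of 0 is taken to allow 3). Before thinning, Car2, which stem cells also carry, held 374 of the 594 UMIs of this list at day 0 and 504 of 1445 at day 28. Gata1 had 14 and 26 of them and Klf1 5 and 6, so the share does not show priming to that lineage by itself. Stem regulators reached the level of 3 UMIs in 7.29% and 12% of T cells. Myeloid granule genes reached it in 19.3% of day 0 and 70.4% of day 28 T cells, so most day 28 cells that should lack granule RNA also reached it. The lymphoid list reached it in 70.7% and 58.3% of members but in 78.9% and 70.4% of T cells, which use many of the same genes, so it sets no lineage apart here.

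**Figure D2:**
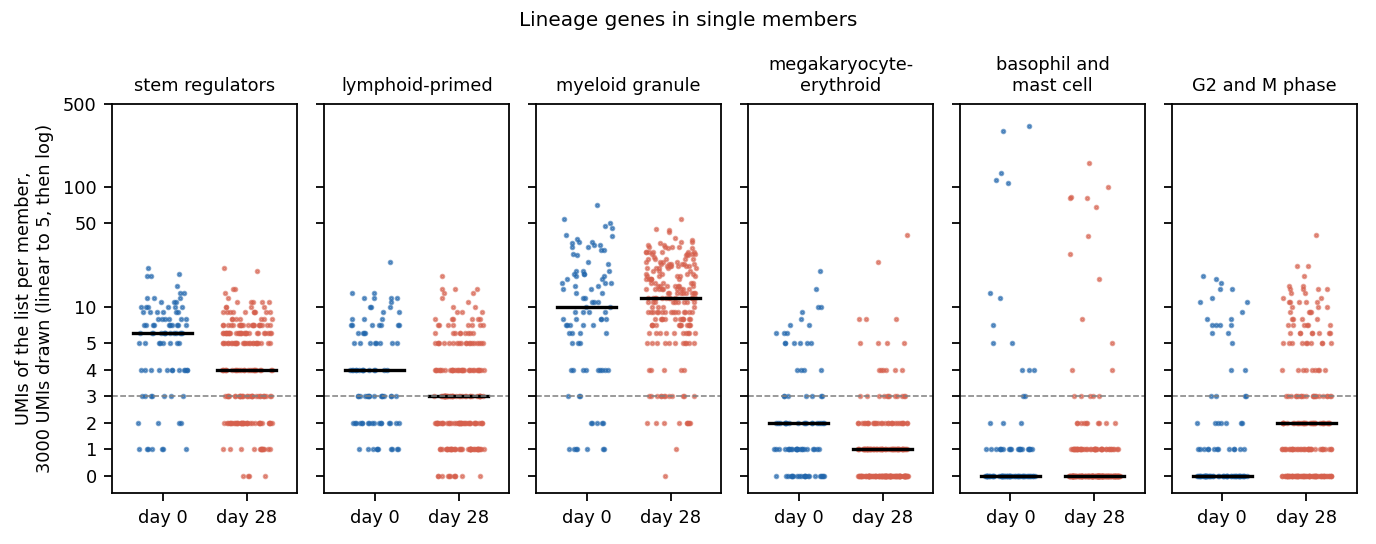
UMIs of 6 gene lists in each member after 3000 UMIs were drawn per cell, at day 0 (92 cells, blue) and day 28 (218 cells, red). Points are cells, black bars medians and the dashed line 3 UMIs; the axis is linear up to 5 and logarithmic above. Stem regulators have medians of 6 and 4 and myeloid granule genes of 10 and 12, while basophil and mast cell genes have medians of 0 with a few cells above 100.

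The cells that the rule leaves out for 1 reason show what each condition removes. Cells that failed only on Elane, the neutrophil elastase (14 and 66 cells), held Mpo at 6309 and 3386 CPM and Meis1 at 2.95 and 11.4 CPM. Cells that failed only on F13a1, a transglutaminase of monocytes (12 and 51 cells), held Irf8 at 853 and 455 CPM, against 239 and 132 CPM in members. Members had lower Mpo (999 and 651 CPM) and higher Meis1 (82.6 and 52.9 CPM) than either group. As the rule caps Elane and F13a1, lower levels of genes that go with them were bound to follow. These differences thus describe what the rule removes and do not place members on a stem cell side. Cells that failed only on Cd34 held still less Mpo, at 98.0 and 286 CPM. Cells that failed only on the summed genes held Mpo at 1017 and 729 CPM.

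The comparison of day 28 with day 0 asks what differed between these cells without surgery and 28 days after ischemia. Immediate early and basophil genes were lower at day 28, as were Hlf, Procr and Gata2 among the genes of immature stem cells, while few genes were higher. Of 4807 genes, 25 (0.52%) were at least 2-fold higher at day 28 and 202 (4.2%) at least 2-fold lower, 227 (4.72%) in all. The median log2 ratio of all measured genes was -0.19 in members and 0.01 in the other cells, so values for single genes are to be read against -0.19. Scaled by the median ratio of genes in place of the total, 53 were higher and 100 lower. Fewer cells of a kind among the members and less RNA per cell cannot be told apart in these sums.

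Some genes of immature stem cells were lower at day 28, and for others no difference was detectable. Hlf was at 59.5 CPM without surgery and 26.1 CPM after ischemia, a ratio of 0.439 (0.306 to 0.633). Procr, the protein C receptor EPCR, stood at 33.0 and 5.69 CPM (ratio 0.172, 0.0891 to 0.323). At low counts, Mecom stood at 16.5 and 7.70 CPM (ratio 0.466, 0.233 to 0.961). Hoxa10 stood at 15.4 and 2.68 CPM (ratio 0.174, 0.0631 to 0.444). The factor Gata2 was at 139 and 51.6 CPM (ratio 0.372, 0.292 to 0.474), and without the members with basophil genes its ratio was 0.355. Mllt3, a regulator of stem cells, stood at 11 and 10.4 CPM (ratio 0.942, 0.450 to 2.15) and Hoxb4, a homeobox factor, at 8.81 and 8.04 CPM (ratio 0.912, 0.396 to 2.35). Slamf1, the surface antigen CD150, stood at 3.30 and 8.37 CPM (ratio 2.53, 0.773 to 13.1), and Tek and Prdm16 had at most 7 UMIs in either library, so a difference was not detectable for these 5 genes at this depth. Hlf, Mecom and Procr, a sum chosen with their values known, came to 109 CPM (88.6 to 133) and 39.5 CPM (32.7 to 47.3), giving a ratio of 0.362 (0.275 to 0.478). Without the members with basophil genes that ratio was 0.330 (0.249 to 0.436), and in the other cells, where the sum was 5.68 and 3.25 CPM, it was 0.572 (0.436 to 0.752). After thinning to 3000 UMIs, 21.7% (13.8% to 31.6%) of day 0 members and 12.4% (8.32% to 17.5%) of day 28 members had a UMI of these 3 genes, beside 1.94% and 0% of T cells.

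The median of the wider stem list lay near that of all genes, with single genes on both sides. Of 15 measured stem regulators, 0 were at least 2-fold higher at day 28 and 2 (Hlf and Gata2) at least 2-fold lower. The list's median log2 ratio was -0.22, close to the -0.19 of all genes, and it was 0.12 in other cells. Short of 2-fold, Hoxa9 (ratio 0.593, 0.431 to 0.823), Lyl1 (0.598, 0.488 to 0.734) and Meis1 (0.640, 0.483 to 0.855) were lower at day 28. Higher were Etv6 (41.9 and 60.3 CPM), Erg (29.7 and 38.5 CPM) and Msi2 (87.0 and 96.1 CPM). The intervals of Erg and Msi2 include a ratio of 1. Lmo2, a core factor of early blood cells, stood at 551 and 475 CPM, Sox4 at 370 and 349 CPM and Runx1 at 98.0 and 86.1 CPM. Kit was at 54.0 and 55.3 CPM (ratio 1.02, 0.740 to 1.44), found in 37.0% and 46.3% of members. Of 7 measured stem surface genes 0 passed 2-fold in either direction, with a median of -0.47. Procr, Mecom and Hoxa10 averaged under 20 CPM and are in neither count. Ly6a, the antigen Sca-1, stood at 26.4 and 19.1 CPM in members and at 92.8 and 59.8 CPM in other cells.

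Genes of lineage priming gave mixed values. Of 12 measured lymphoid-primed genes 0 passed 2-fold in either direction, and their median was -0.42, with Flt3 at 102 and 56.9 CPM (ratio 0.556, 0.429 to 0.723) and Dntt at 184 and 137 CPM (ratio 0.744, 0.620 to 0.897). Of 9 myeloid granule genes 2 were 2-fold higher, S100a8 (13.2 and 68.6 CPM) and S100a9 (15.4 and 58.9 CPM), and 0 lower. S100a8 was also higher in the T cells at day 28, at 278 and 949 CPM, and its part in the members' values was not tested. Prtn3, proteinase 3, stood at 714 and 1155 CPM (ratio 1.62, 1.49 to 1.76), while Mpo stood at 999 and 651 CPM (ratio 0.652, 0.602 to 0.706) and Ctsg, cathepsin G, at 908 and 569 CPM (ratio 0.626, 0.576 to 0.682). Without the members with basophil genes the ratios of Mpo and Ctsg were 0.860 and 0.928, and with the rule on thinned counts they were 2.04 and 6.17, in the other direction. In T cells Prtn3 stood at 52.2 and 801 CPM and Mpo at 76.4 and 384 CPM. Of 5 measured megakaryocyte and erythroid genes 1 (Pf4) was higher and 1 (Car2) lower. Car2 stood at 412 and 169 CPM (ratio 0.410, 0.358 to 0.470), against a ratio of 0.920 in other cells. Pf4 stood at 41.9 and 157 CPM, with the single day 28 cell named above holding most of it.

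Immediate early genes, which respond within minutes to signals and to tissue handling, held the most genes 2-fold lower of any list. Of 15 measured, 0 were 2-fold higher and 7 at least 2-fold lower, with a median of -0.91, beside -0.59 for the same genes in other cells. Fos, a subunit of the factor AP-1, was at 1132 and 431 CPM (ratio 0.381, 0.351 to 0.414) and Ier2 at 689 and 245 CPM (ratio 0.356, 0.320 to 0.397). Jun stood at 759 and 338 CPM, while Nr4a1, an orphan nuclear receptor, was at 328 and 325 CPM. A thinned member held a median of 23 UMIs of the list at day 0 and 13 at day 28.

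Cell cycle genes gave a mixed picture. Mki67, a marker of cycling cells, stood at 29.7 and 60.3 CPM (ratio 2.03, 1.35 to 3.16) in members and 71.8 and 97.0 CPM in other cells. Of 18 measured G2 and M phase genes it was the 1 gene past 2-fold higher, 0 were lower, and the median was 0.16. Top2a stood at 142 and 196 CPM, and Cdk1 at 89.2 and 61.3 CPM. Of 14 S phase genes 0 passed 2-fold in either direction, with a median of -0.39. At least 3 UMIs of G2 and M phase genes were found in 26.1% (17.5% to 36.3%) and 38.5% (32.0% to 45.3%) of thinned members, but also in 4.24% and 25% of T cells. Cdk6, the G1 kinase of early progenitors, stood at 496 and 471 CPM.

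**Figure D3:**
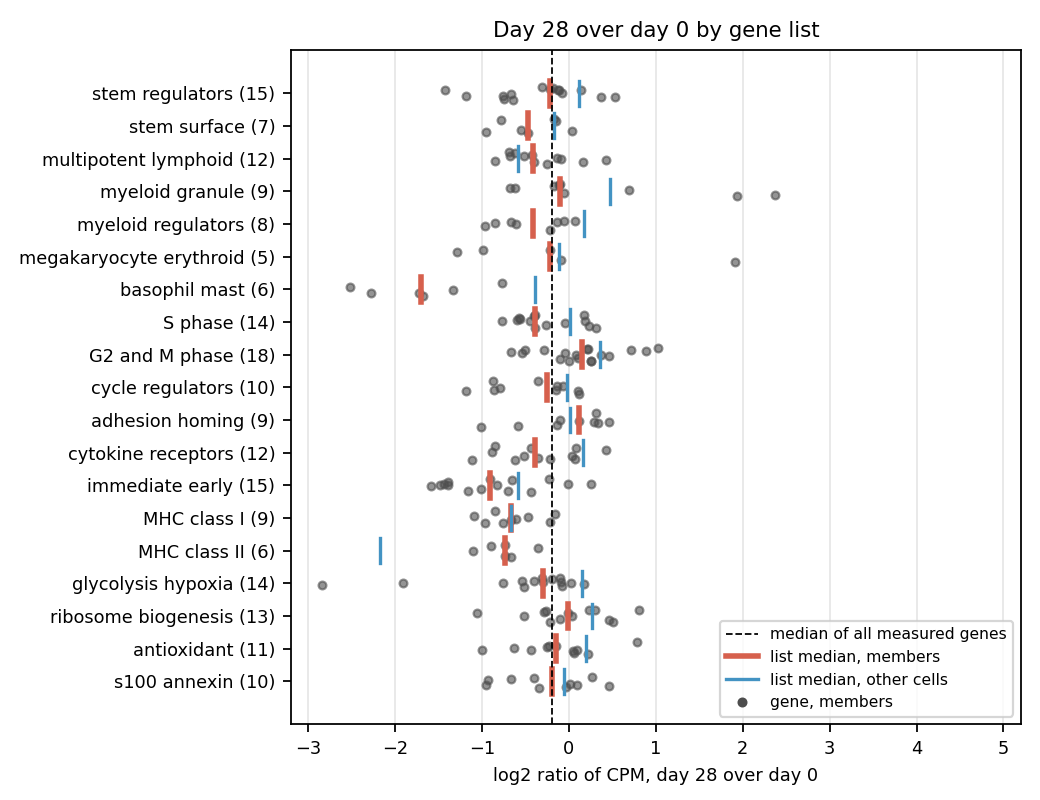
Log2 ratio of CPM at day 28 over day 0 for the measured genes (grey points) of 19 lists in members, with the list median in members (red) and in other cells (blue); the number of measured genes stands in brackets and the dashed line is the median of all measured genes, -0.19. The medians of basophil and mast cell genes (-1.70) and immediate early genes (-0.91) lie farthest to the left in members.

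Basophil and mast cell genes were lower at day 28, and this rested on the few members that hold them. Of 6 measured, 0 were 2-fold higher and 5 at least 2-fold lower, with a median of -1.70. Cpa3 stood at 476 and 83.0 CPM (ratio 0.174, 0.149 to 0.204), and 0.428 without the members with basophil genes. Mcpt8 stood at 1909 and 395 CPM (ratio 0.207, 0.192 to 0.223), but without those members its ratio was 1.25. Prss34, another basophil protease, stood at 1773 and 535 CPM (ratio 0.302, 0.282 to 0.324), with 49.5% of its day 0 UMIs in 1 cell and a ratio of 1.42 without the members with basophil genes.

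The remaining lists held few genes past 2-fold. MHC class I genes had a median of -0.66 in members and -0.67 in other cells, with 1 of 9 (H2-T23) at least 2-fold lower, and B2m, the class I light chain, stood at 2190 and 1383 CPM. Of 14 glycolysis and hypoxia genes 0 were higher and 2 lower, with a median of -0.30. Those were Eno1 (292 and 77.4 CPM) and Pgk1 (38.6 and 5.36 CPM), both glycolytic enzymes, while Ldha stood at 650 and 606 CPM and Gapdh at 1686 and 1907 CPM. Of 13 MYC and ribosome biogenesis genes 0 were higher and 1 lower, Myc itself at 102 and 49.2 CPM (ratio 0.480, 0.368 to 0.630), with a median of -0.01. Npm1, a nucleolar chaperone, stood at 1795 and 2549 CPM. Of 6 measured angiogenic and repair ligands 0 were higher and 1 lower, Apoe at 333 and 131 CPM (ratio 0.395, 0.339 to 0.460, and 0.311 in other cells). Without the members with basophil genes the Apoe ratio was 0.523, which is not past 2-fold. Tgfb1 stood at 446 and 341 CPM. Cxcr4, the marrow homing receptor, was at 6.61 and 12.7 CPM, with an interval of its ratio from 0.807 to 5.57, so no difference was detectable at this depth.

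Receptors and regulators gave the same kind of count. Of 12 cytokine and growth factor receptors 0 were higher and 1 lower, with a median of -0.40, and this was Tgfbr2, a receptor of TGF-beta, at 27.5 and 12.7 CPM. Of 8 myeloid regulators 0 passed 2-fold in either direction, with a median of -0.41 in members and 0.17 in other cells. Of 10 cell cycle regulators 1 was lower, Btg2, an antiproliferative factor, at 375 and 164 CPM, and of 9 adhesion and homing genes 1 was lower, the adhesion molecule Icam2, at 60.6 and 30.1 CPM. MHC class II genes had a median of -0.73 in members beside -2.18 in other cells, with 1 of 6, H2-Aa, at least 2-fold lower at 85.9 and 39.8 CPM. Of 11 antioxidant genes 1 was lower, the peroxiredoxin Prdx1 at 626 and 312 CPM. The 5 measured interferon genes were divided, with Ifi27l2a higher (14.3 and 31.1 CPM) and Ifi47 lower (52.9 and 18.1 CPM). Of 10 S100 and annexin genes 0 passed 2-fold in either direction.

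The 12 highest and 12 lowest ratios were taken among named genes outside the rule with a mean of 50 CPM or more, found in at least 10% of members, and with no cell over 25% of the UMIs. The last condition leaves out Pf4, Jchain and Slpi, with ratios of 3.76, 47.6 and 3.77, of whose UMIs 1 cell held 53.5%, 81.8% and 49.4%. Of the 24 genes taken, all but Chchd10 lay on the same side of 1 in the other cells. Rnaset2a, a lysosomal ribonuclease, stood at 41.9 and 135 CPM (ratio 3.22, 2.31 to 4.62), beside a ratio of 3.07 in other cells, and its near-identical copy Rnaset2b at 48.5 and 129 CPM, so reads may be divided between the pair. Oxct1, an enzyme of ketone body use, stood at 46.3 and 96.4 CPM (ratio 2.08, 1.5 to 2.95), beside 1.38 in other cells. Odc1, the rate-limiting enzyme of polyamine synthesis, stood at 115 and 200 CPM (ratio 1.74, 1.41 to 2.17), beside 1.53 in other cells. At the other end Hist1h2ap, a replication histone gene and part of a family of near-identical copies, stood at 228 and 6.70 CPM, and at 215 and 11.2 CPM in other cells. Ltb, lymphotoxin beta, stood at 94.7 and 18.4 CPM and Il2rg, the common cytokine receptor chain, at 107 and 31.1 CPM, with still lower ratios in other cells (0.0594 and 0.114). Chchd10, a mitochondrial protein, went the other way, at 47.4 and 84.4 CPM in members and 279 and 195 CPM in other cells.

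**Figure D4:**
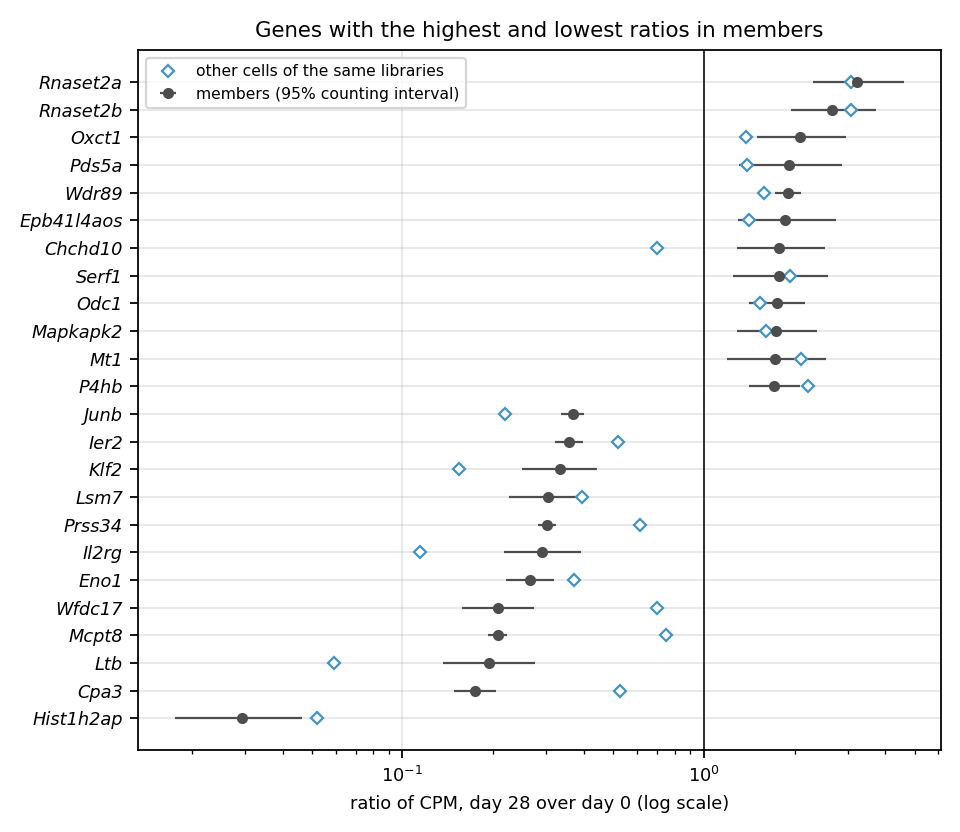
Ratio of CPM at day 28 over day 0 on a log axis for the 12 highest and 12 lowest genes in members (mean of 50 CPM or more, no cell over 25% of the UMIs), with 95% counting intervals (grey), and the ratio of the same gene in the other cells (open diamonds). The diamonds lie on the same side of 1 as the members for each gene except Chchd10.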

How the data were processed

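Single-cell RNA profiles of 2 libraries, 1 per group, were used. The authors deposited raw UMI counts per gene and barcode, not normalized. Cell Ranger 2.1.1, STAR (version not given in the sources used here) and build mm10 are named per the submitters' processing notes. The libraries held 2668 and 2653 barcodes with 19574562 and 38785525 UMIs. Every value was checked to be a whole number. Barcodes under 500 genes or above 10% mitochondrial UMIs were left out (2 and 17). Scrublet (scanpy 1.11.5) marked 4 and 8 barcodes, too few to rely on, so doublets stayed in and the 57 and 56 highest scores were left out as an alternative. No clustering was done: members come from the rule alone.

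UMIs were summed over cells per library and divided by the sum's total (CPM). Levels have Poisson, shares Clopper-Pearson and ratios conditional binomial intervals (scipy 1.17.1). Genes with a mean of at least 20 CPM in members were measured, and a ratio of at least 2 or at most 0.5 was counted. Genes were named by rule: stem, lineage and control genes set by name; the 20 highest over other cells; the 12 highest and 12 lowest day 28 over day 0 at 50 CPM or more, found in 10% of members, with a counting interval that excludes 1 and no cell over 25% of UMIs (from both sets the genes of the rule, unnamed and sex-linked genes and those of mitochondria, ribosomal proteins and haemoglobin were left out); and the 3 most abundant, highest and lowest of each of 30 lists. Others in the text (Lyz2, Ly6c2, Jun, S100a9, Runx1, Cdk1, Erg, Msi2 and Hoxa10) were picked with their values in view. Some genes of the lists are not reported here and enter no list value. The members and lists were chosen with earlier results of these data known. Ensembl identifiers were matched to GENCODE for coordinates (27645 of 27998). The scripts were tested on simulated counts. Alternatives covered barcode filter, doublets, rule, depth, scaling and low counts.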

Additional observations from a re-analysis of the deposited data

Results flagged for a closer look

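For 10 genes the members lay on opposite sides of the other cells in the 2 libraries, with counting intervals that exclude equal levels in both. With 1 library per group the difference between the libraries was not tested. Ratios of members over other cells were 1.25 at day 0 and 0.909 at day 28 for Dut, an S phase enzyme, and 1.25 and 0.813 for the replication helicase subunit Mcm2. For the myeloid gene Plac8 they were 1.51 and 0.815, for Ctsg 1.19 and 0.461, and for the chemokine Ccl4 1.29 and 0.620. Gapdh had 1.13 and 0.865, and the interferon-induced Ifitm3 1.18 and 0.823. Lower at day 0 and higher at day 28 were Junb (0.929 and 1.56), Wdr89 (0.910 and 1.09) and Pf4 (0.439 and 3.11), the last with 57.9% of its day 28 UMIs in 1 member. At day 0, 383 of the 824 Ctsg UMIs of members lay in the 12 members with basophil genes. Among the remaining day 0 members Ctsg stood at 375 CPM with a Hlf, Mecom or Procr UMI and at 722 CPM without. Both values lie below the 762 CPM of other cells, so the day 0 excess of Ctsg rested on the members with basophil genes.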

How the results depend on the processing

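With 1 library per group no value here has a replicate check, and counting intervals are the only error given. No paired analysis was possible because each group has 1 library and the labels give no replicate numbers. The share ratio of 2.40 lay between 2.06 and 2.53 under 6 alternatives and was 1.49 among cells of at least 4175 UMIs. Against 25 genes higher and 202 lower at day 28, there were 38 higher with at least 2 Cd34 UMIs, 40 with the mean of per-cell CPM, 53 higher and 100 lower with median-ratio scaling, 136 and 589 with members thinned to 3000 UMIs, 186 and 780 with the rule applied to thinned counts (26 and 53 members), and 518 and 1742 without the filter on low counts. The last 3 rest on fewer UMIs per gene or per group. Over other cells, 140 genes became 212 with the rule on thinned counts, and 140 and 84 became 767 and 563 without the filter.

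Median log2 ratios of lists with the rule on thinned counts were -1.0 for stem surface (-0.98 with members thinned), 1.39 for myeloid granule, -0.074 for basophil and mast cell, 0.63 for G2 and M phase, -1.46 for immediate early, -0.96 for MHC class I, 0.048 for glycolysis and 0.47 for ribosome biogenesis genes. With at least 2 Cd34 UMIs myeloid granule genes had 0.19 and basophil genes -1.25. Basophil genes had -1.41 thinned, -1.37 with per-cell means and -0.45 without the members with basophil genes, an alternative added after seeing the data; immediate early genes had -0.72 with median-ratio scaling. Among the genes that turned in direction was Pf4 (log2 -0.58 with at least 2 Cd34 UMIs, -3.55 with the rule on thinned counts). Mcpt8 (1.54 with that rule, 0.33 without the members with basophil genes) and Prss34 (1.22 and 0.51) also turned. With the rule on thinned counts so did Hdc of the basophil list, Irf8, Ctsg and Mpo. Their ratios were then 5.24, 1.93, 6.17 and 2.04, against 0.587, 0.553, 0.626 and 0.652. Hdc had a ratio of 1.96 without the members with basophil genes. The cause was not tested. With 2 UMIs in place of 3, the day 0 shares were 89.1% lymphoid and 51.1% megakaryocyte-erythroid, and the day 28 shares 92.2% stem, 76.6% lymphoid, 99.1% granule, 26.1% megakaryocyte-erythroid and 54.1% G2 and M phase. Across the alternatives Hlf kept a ratio between 0.302 and 0.621, Gata2 between 0.307 and 0.425 and Fos between 0.324 and 0.436, while Mpo ran from 0.621 to 2.04. Without the members with basophil genes, Mki67, Ifi27l2a, Icam2 and Prdx1 also fell short of 2-fold, at ratios of 1.88, 1.95, 0.502 and 0.502.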

Other observations

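A few genes whose levels are not given above also set the members apart from the other cells. Their choice was made with the values known. The homeobox factor Nkx2-3 was found in 13 members without surgery and 20 after ischemia, with levels of 28.6 and 18.1 CPM against 0.536 and 0.336 CPM in the other cells. The orphan receptor Tie1, of the endothelial list, was found in 12 and 14 members, with levels of 14.3 and 4.69 CPM against 0.911 and 1.65 CPM. The MYC family factor Mycn was found in 7 and 13 members, with levels of 9.91 and 6.36 CPM against 0.375 and 0.756 CPM.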
